A study of Mus musculus with 8 samples.

Results

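The genes described here mark T cells and NK cells. The list names 45 genes, and a gene was measured by the probe sets whose platform annotation names it and no other gene. This gave 42 genes of 18193, measured by 64 probe sets. No probe set names Lck or Tcf7 alone, and Klrb1c shares its only annotated probe set with Klrb1b. Those 3 genes were not analysed as members. All 42 measured genes were tested, with no filter on low values.

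RNA came from lumbar intervertebral discs of female BALB/c mice, with the 6 discs of levels L1 to L6 pooled per sample. Immunized mice (5 samples) had received cartilage proteoglycan holding 100 µg of protein, together with 2 mg of dimethyldioctadecylammonium bromide as adjuvant. Injections were on days 0, 21 and 42, a schedule used to bring about autoimmune spondylitis. Naive mice (3 samples) were of the same age and received no immunization. Naive replicate 3 and immunized replicate 1 carry joined sample numbers, with no statement of whether mice were pooled, and neither the time of disc collection nor the age of the mice is given in the labels. Each probe set's log2 values were set to a median of 0 over the 8 arrays, and a gene's value is the mean of its probe sets. They show differences between samples, and no gene's level can be set against that of another gene. The test was limma over all genes, with a Benjamini-Hochberg adjusted p under 0.05 as the threshold.

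A T cell recognises antigen through its receptor, whose signal is carried into the cell by the CD3 chains and CD247. The coreceptors CD4 and CD8 bring the kinase LCK to the receptor, ZAP70 is then recruited, and the adaptors LAT and SLP-76 (encoded by Lcp2) pass the signal on. NK cells have no such receptor and act through a balance of activating and inhibitory receptors, but share with cytotoxic T cells the granule proteins perforin and granzymes. In proteoglycan-induced arthritis and spondylitis of BALB/c mice, T cells specific for the cartilage proteoglycan are a known part of the disease. Several of the listed genes are not restricted to lymphocytes. Thy1 is also made by fibroblasts and neurons, Lef1 by mesenchymal and epithelial cells, Il7r by some myeloid and stromal cells, and Lcp2 and Lat by mast cells and platelets (Lcp2 by other myeloid cells too).

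Few of these genes passed the test. Cd3g, a chain of the CD3 complex, was higher in immunized discs, and Cd8b1, the beta chain of the CD8 coreceptor, was lower. These were 2 of 42 genes, or 4.76%, where 9.14% of all 18193 genes were called (4.46% higher, 4.68% lower). The difference between these shares was not tested. At an adjusted p under 0.10, 8 of the 42 genes were higher and 2 lower, where 3783 of all genes were called. Before adjustment, 11 of the 42 genes were higher (26.2%) and 2 lower (4.76%) at p under 0.05, against 12.9% and 18.2% of all genes. A positive difference was found for 29 genes (69% of the 42, against 43.9% of all genes), with a median of 0.15, against -0.04 over all genes. In 9 genes (21.4%) the immunized and naive samples did not overlap, and over all genes this share was 23.4%. In 6 of them (14.3%, against 9.39% of all genes) the immunized samples lay on the upper side, and in 3 (7.14%, against 14% of all genes) on the lower side. With probe sets tested singly, 3 of 64 passed, 1 higher (Cd3g) and 2 lower (Cd8b1 and a Lef1 probe set), where 6.19% of all probe sets passed (3.3% higher, 2.89% lower). Naive replicate 1 and immunized replicates 3 and 5 were the highest of their groups in the mean of neutrophil and of erythroid markers. Without these samples, Cd3d and Cd3g were called higher and 0 of the 42 genes lower in limma (1 lower, unadjusted). In that setting 218 of all genes were called, and the median was 0.082, against -0.039 over all genes. This choice was made after the data were seen. Naive replicate 1 had the highest Cd3d value of the naive samples (0.01, against -1.02 and -1.08 in the others). The same held for Cd3g (-0.28, against -1.08 and -0.98), so leaving it out lowers the naive mean of both genes. With immunized replicates 3 and 5 alone left out, 0 of the 42 genes were called in limma (8 higher and 2 lower, unadjusted), where 220 of all genes were called.

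**Figure D1:**
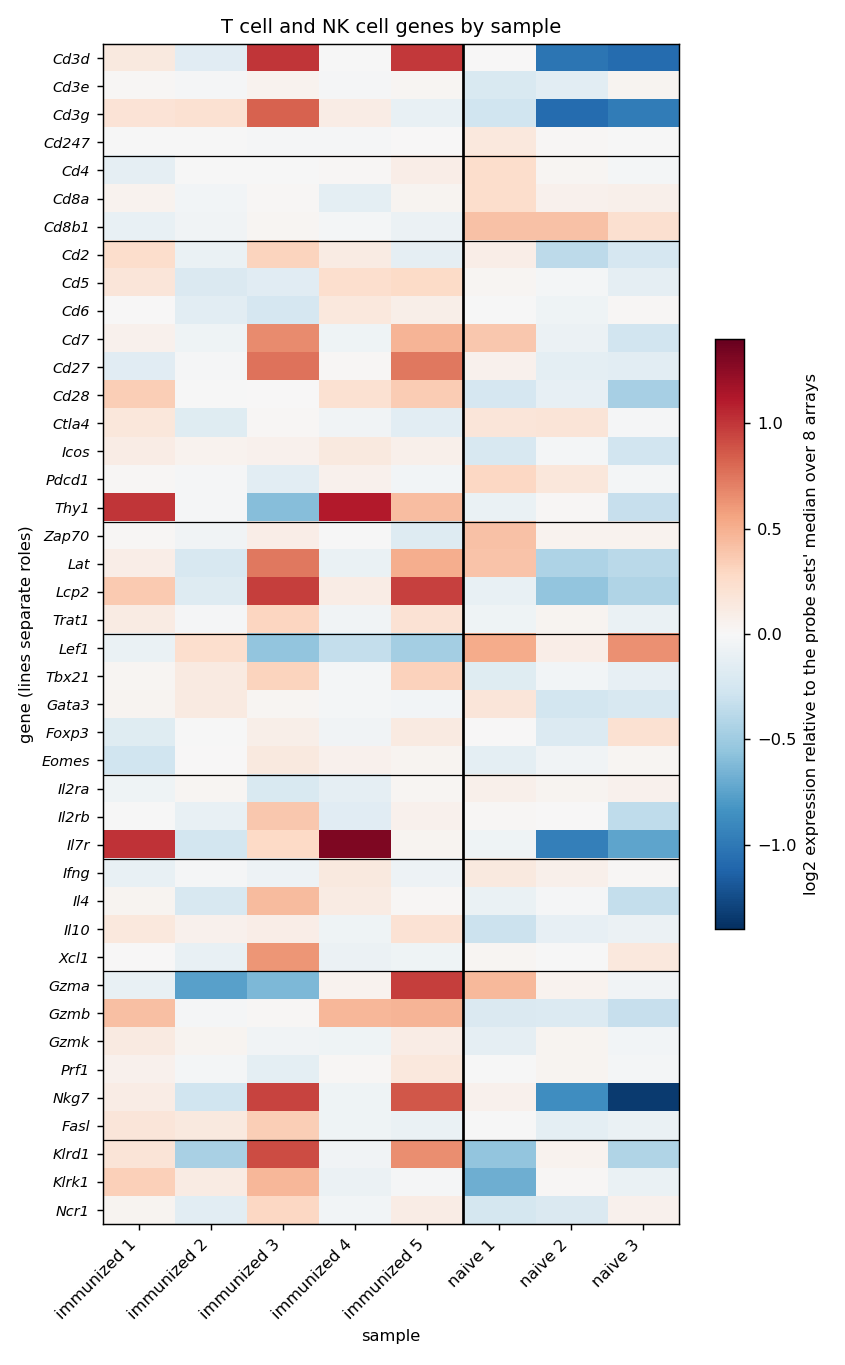
Median-centred log2 values of the 42 T cell and NK cell genes (rows, grouped by role) in 5 immunized and 3 naive disc samples (columns). Red is above and blue below that median. Cd3d, Lcp2 and Nkg7 are reddest in immunized 3 and 5, whereas Thy1 and Il7r are reddest in immunized 1 and 4.

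Within the T cell receptor complex, 2 chains varied widely and 2 varied little. Cd3g was 0.19, 0.22, 0.83, 0.10 and -0.10 in immunized replicates 1 to 5, against -0.28, -1.08 and -0.98 in naive replicates 1 to 3. The groups did not overlap, with immunized replicate 3 well above the others and naive replicate 1 nearest to the immunized group. The difference was 1.03 ± 0.23 (SE, limma adjusted p = 0.0348), or 2.04-fold. Cd3d, the delta chain, had a difference of similar size but a wider spread. Its values were 0.13, -0.16, 1.01, -0.01 and 0.99 in immunized replicates 1 to 5, against 0.01, -1.02 and -1.08 in naive replicates 1 to 3. Immunized replicates 3 and 5 were high, naive replicates 2 and 3 were low, and naive replicate 1 lay among the remaining immunized samples. The difference of 1.09 ± 0.35 did not pass (limma adjusted p = 0.0791).

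The epsilon chain, Cd3e, lay between -0.02 and 0.05 in all 5 immunized samples, against -0.22, -0.15 and 0.04 in naive replicates 1 to 3. Its groups overlapped, and the difference was 0.12 with a 95% confidence interval of -0.06 to 0.29 (limma adjusted p = 0.333). Cd247, the zeta chain, was measured by 4 probe sets and lay between -0.02 and 0.01 in immunized samples, against 0.15, 0.02 and -0.01 in naive replicates 1 to 3. Its difference was -0.06 (95% confidence interval -0.21 to 0.09). The mean of 4 probe sets spread less than single ones, of which 1 ran from -0.25 to 0.21 over the samples. Thus Cd3d and Cd3g, but not Cd3e or Cd247, differed between samples by more than 1 log2 unit. The probe sets of Cd3d, Cd3e and Cd3g all had their lowest array between 4 and 8 on the log2 scale, as read from the spacing of the deposited numbers. The lowest array of 2 of the 4 Cd247 probe sets was below 4.

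The 3 CD3 genes are neighbours on mouse chromosome 9, and Cd3g and Cd3d are read in opposite directions from starts 1355 bases apart. Their promoter windows are shown because Cd3g and Cd3d were both near -1 or lower in naive replicates 2 and 3, where Cd3e was -0.15 and 0.04. Each window runs from 250 bases before to 50 bases after the start, from RefSeq on GRCm38.p6, at chr9:44980382-44980681 (minus strand, Cd3g), chr9:44981536-44981835 (plus strand, Cd3d) and chr9:45009562-45009861 (minus strand, Cd3e). Capitals mark matches to AGGAAG, a longer form of the ETS core GGAA, on either strand. The shorter GGAA was not counted, and it is in the Cd3g window too.
Cd3g: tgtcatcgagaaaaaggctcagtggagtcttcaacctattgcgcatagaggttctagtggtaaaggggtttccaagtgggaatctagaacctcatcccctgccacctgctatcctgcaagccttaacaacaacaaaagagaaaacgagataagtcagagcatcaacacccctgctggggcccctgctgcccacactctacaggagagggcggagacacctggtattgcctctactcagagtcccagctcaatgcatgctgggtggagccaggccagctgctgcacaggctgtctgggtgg
Cd3d: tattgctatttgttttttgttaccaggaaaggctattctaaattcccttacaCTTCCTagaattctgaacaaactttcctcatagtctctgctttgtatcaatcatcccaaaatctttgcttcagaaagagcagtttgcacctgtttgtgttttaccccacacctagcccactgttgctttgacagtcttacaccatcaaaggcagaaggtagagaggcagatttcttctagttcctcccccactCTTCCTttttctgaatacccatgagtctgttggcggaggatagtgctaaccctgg
Cd3e: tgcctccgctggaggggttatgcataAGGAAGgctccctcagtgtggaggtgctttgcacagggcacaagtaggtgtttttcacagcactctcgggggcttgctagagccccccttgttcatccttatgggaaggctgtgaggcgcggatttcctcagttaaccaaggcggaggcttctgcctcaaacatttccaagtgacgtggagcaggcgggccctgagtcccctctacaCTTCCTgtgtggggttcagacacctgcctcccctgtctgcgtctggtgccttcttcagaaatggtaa
AGGAAG was found in 2 places in the Cd3d window, in 2 in the Cd3e window and in 0 in the Cd3g window. It occurs in 35.4% of 32851 RefSeq promoter windows of this length. The letters TATAAA of a TATA box (13.6% of windows) and TGTGGT of a RUNX site (16.8%), searched on both strands, are in 0 of the 3 windows. The motifs do not overlap each other here, and a match describes letters and not binding.

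All 3 coreceptor genes had a negative difference. Cd8b1 was -0.10, -0.05, 0.03, -0.03 and -0.08 in immunized replicates 1 to 5, against 0.41, 0.41 and 0.22 in naive replicates 1 to 3. The groups were apart, and the immunized samples lay close together (SD 0.05, n = 5). The difference was -0.39 ± 0.08 (limma adjusted p = 0.0253), so that naive discs were 1.31-fold higher. Cd8a, the alpha chain, lay at 0.05, -0.04, 0.02, -0.14 and 0.04 in immunized replicates 1 to 5, against 0.25, 0.06 and 0.07 in naive replicates 1 to 3. Its groups also did not overlap, although narrowly, and its difference of -0.14 ± 0.08 did not pass (adjusted p = 0.255). The 5 probe sets of Cd8a gave differences between -0.32 and 0.01. Cd4, the coreceptor of helper T cells, was -0.12, -0.01, -0.01, 0.02 and 0.10 in immunized replicates 1 to 5, against 0.25, 0.03 and -0.03 in naive replicates 1 to 3. Its groups overlapped, and the 95% confidence interval of its difference was -0.28 to 0.11. The probe sets of Cd4 differed by 0.10 and -0.27.

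Both calls depended on single samples, as did calls over all genes, while the differences moved less. With each sample left out in turn, Cd3g differed by 0.88 to 1.28 and Cd8b1 by -0.46 to -0.36. Cd3g kept its direction but not its call without immunized replicate 1 (adjusted p = 0.0834), immunized replicate 4 (0.0538), immunized replicate 5 (0.0537), naive replicate 2 (0.110) or naive replicate 3 (0.0940). The call of Cd8b1 ended without immunized replicate 1 (0.0740), immunized replicate 5 (0.0562), naive replicate 1 (0.0614) or naive replicate 2 (0.0874). Calls over all genes fell too, from 1663 to 148, 868 and 394 without immunized replicates 1, 4 and 5. They fell to 374, 21 and 176 without naive replicates 1, 2 and 3. Without immunized replicate 2, in contrast, 6 genes were higher (Cd28, Cd3d, Cd3g, Gzmb, Il7r and Lcp2) and Cd8b1 and Lef1 were lower, in a setting where 3003 genes were called in all. Without both samples with joined numbers, limma called 0 of all genes (1621 higher and 2173 lower, unadjusted). Neither Cd3g (adjusted p = 0.183) nor Cd8b1 (0.15) was therefore called. Over all 19 alternative settings each was called in 11, with adjusted p between 0.0013 and 0.183 for Cd3g and between 0.0027 and 0.169 for Cd8b1. In bulk tissue, more cells of a type and more RNA per cell cannot be told apart.

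Surface receptors for adhesion and costimulation gave 0 calls among 10 genes in limma, with 2 higher and 0 lower before adjustment. Cd28, which delivers the main costimulatory signal, came closest. It was 0.34, -0.01, 0.01, 0.21 and 0.36 in immunized replicates 1 to 5, against -0.23, -0.11 and -0.46 in naive replicates 1 to 3. The groups did not overlap, with immunized replicates 2 and 3 nearest to the naive samples, and the difference was 0.45 ± 0.12 (adjusted p = 0.0508). It passed when arrays were centred on their medians and when probe sets with an array below 4 were left out. Icos, the inducible costimulator, was 0.10, 0.05, 0.06, 0.14 and 0.07 in immunized replicates 1 to 5, against -0.22, -0.03 and -0.27 in naive replicates 1 to 3. All immunized samples lay above the naive ones, with a difference of 0.25 ± 0.08 (adjusted p = 0.0686).

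The inhibitory receptor genes among the 42, Ctla4 and Pdcd1, did not pass. For Ctla4, which competes with CD28 for its ligands and is its genomic neighbour, the difference was -0.15 (95% confidence interval -0.37 to 0.07). For Pdcd1, which encodes PD-1, it was -0.17 (-0.37 to 0.04). Cd27, a receptor of the TNF receptor family, was high in immunized replicates 3 and 5 alone (0.76 and 0.74), against -0.16 to 0.01 in the other immunized samples and -0.15 to 0.06 in naive samples. Thy1 showed another order, at 1.00, -0.02, -0.59, 1.11 and 0.43 in immunized replicates 1 to 5, against -0.09, 0.02 and -0.32 in naive replicates 1 to 3. It had the widest spread of the 42 genes among immunized samples (SD 0.71, n = 5), and its lowest and highest samples were both immunized. The adhesion and scavenger-like receptors Cd2, Cd5, Cd6 and Cd7 differed by 0.26, 0.10, -0.02 and 0.20, each with overlapping groups.

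**Figure D2:**
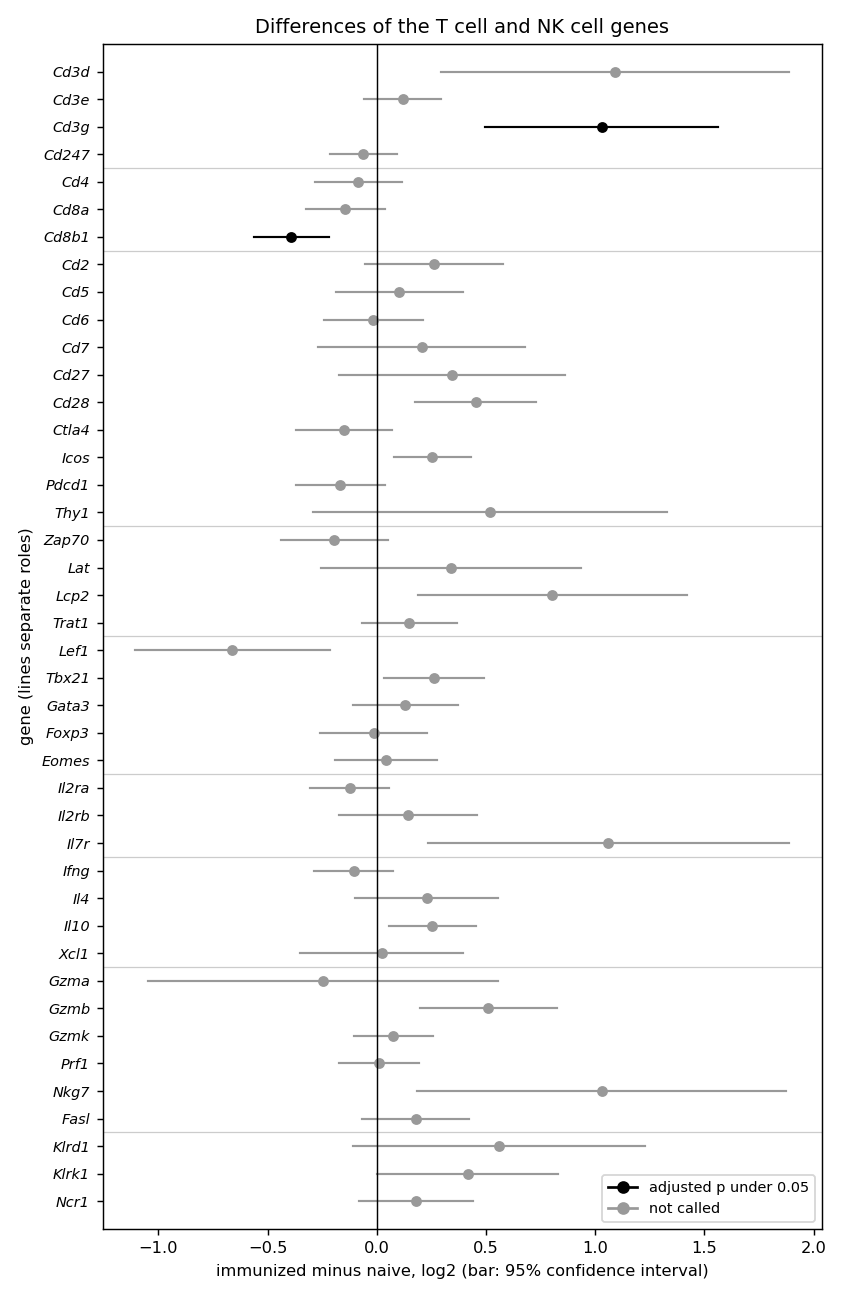
Immunized minus naive log2 differences (x axis) of the 42 genes (y axis, grouped by role) with 95% confidence intervals from limma. Black marks Cd3g (1.03) and Cd8b1 (-0.39), which passed an adjusted p under 0.05, and grey marks the other 40 genes.

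Among proximal signalling genes, 0 of 4 were called in limma (1 higher and 0 lower, unadjusted). Lcp2 was 0.37, -0.19, 0.97, 0.10 and 0.96 in immunized replicates 1 to 5, against -0.10, -0.55 and -0.43 in naive replicates 1 to 3. Immunized replicates 3 and 5 stood high, immunized replicate 2 fell among the naive samples, and the difference of 0.80 ± 0.27 did not pass (adjusted p = 0.0887). Lat was likewise highest in immunized replicates 3 and 5 (0.74 and 0.51), but naive replicate 1 followed at 0.40, and its difference was 0.34 ± 0.26 (0.60 without that naive sample, and 0.19 at the lowest, with naive replicate 2 left out). Zap70 had a difference of -0.19 ± 0.11, set largely by naive replicate 1 at 0.41, and without that sample it was -0.07. The receptor-associated adaptor Trat1 differed by 0.15 ± 0.10, and its 2 probe sets by 0.35 and -0.05. The probe set with the positive difference had an array below 4 on the log2 scale.

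None of the 5 transcription factors measured passed in limma (1 higher and 1 lower, unadjusted). Lef1, a partner of beta-catenin that acts in T cell development and in Wnt signalling of many tissues, had the largest negative difference of the 42 genes. Its values were -0.09, 0.23, -0.56, -0.33 and -0.48 in immunized replicates 1 to 5, against 0.52, 0.09 and 0.64 in naive replicates 1 to 3. Immunized replicate 2 lay above naive replicate 2, and the difference was -0.66 ± 0.20 (adjusted p = 0.0646). Its 2 probe sets gave -0.70 and -0.62, and tested singly over all probe sets the first passed (adjusted p = 0.0479). Of 10 chondrocyte markers 5 were lower and 0 higher in limma (9 lower, unadjusted), and their mean was -0.42, 0.28, -0.86, -0.25 and -0.50 in immunized replicates 1 to 5, against 0.38, 0.60 and 0.66 in naive replicates 1 to 3. The part of disc cells in the Lef1 values was not tested.

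Tbx21, which encodes T-bet, the factor of type 1 T cells and NK cells, was 0.02, 0.12, 0.31, -0.02 and 0.32 in immunized replicates 1 to 5, against -0.17, -0.04 and -0.12 in naive replicates 1 to 3. The groups did not overlap, but the difference of 0.26 ± 0.10 did not pass (adjusted p = 0.118). For Foxp3, the factor of regulatory T cells, immunized replicates 1 to 5 had -0.17, -0.01, 0.08, -0.05 and 0.12, against 0.01, -0.19 and 0.22 in naive replicates 1 to 3. The immunized samples lay within the range of the naive samples, and the 95% confidence interval of the difference was -0.26 to 0.23. Gata3, the factor of type 2 T cells, differed by 0.13 ± 0.11, and Eomes, a relative of T-bet in cytotoxic cells, by 0.04 ± 0.10. The only Gata3 probe set had an array below 4 on the log2 scale.

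Of 3 cytokine receptor chains 0 passed in limma (1 higher, 0 lower, unadjusted). Il7r, the receptor chain for the survival cytokine IL-7, was 1.01, -0.25, 0.27, 1.30 and 0.04 in immunized replicates 1 to 5, against -0.06, -0.96 and -0.74 in naive replicates 1 to 3. Immunized replicates 1 and 4 were highest and immunized replicate 2 fell below naive replicate 1, so that a difference of 1.06 ± 0.36 did not pass (adjusted p = 0.0921). Its probe sets differed by 0.84 and 1.28, and neither passed when tested singly (adjusted p = 0.193 and 0.0631). The alpha chain of the IL-2 receptor, Il2ra, differed by -0.12 ± 0.08, and the beta chain, Il2rb, by 0.14 ± 0.14.

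Of the cytokine and chemokine genes Ifng, Il4, Il10 and Xcl1, 0 passed in limma (1 higher, 0 lower, unadjusted). Ifng, the type 1 cytokine, was -0.11, -0.02, -0.07, 0.14 and -0.07 in immunized replicates 1 to 5, against 0.14, 0.08 and 0.02 in naive replicates 1 to 3. Its groups overlapped, the 95% confidence interval of the difference was -0.29 to 0.07, and its only probe set had an array below 4 on the log2 scale. The anti-inflammatory cytokine gene Il10 was 0.15, 0.06, 0.09, -0.06 and 0.20 in immunized replicates 1 to 5, against -0.30, -0.12 and -0.08 in naive replicates 1 to 3. Its groups did not overlap, its probe set too had an array below 4, and its difference was 0.25 ± 0.09 (adjusted p = 0.0929). Il4, the type 2 cytokine, differed by 0.23 ± 0.14 and the chemokine gene Xcl1 by 0.02 ± 0.16. On the other lists, the T cell cytokine genes Il2 (-0.29 ± 0.11), Il13 (-0.30 ± 0.13) and Il5 (-0.12 ± 0.07) were named after their values were seen. They had all immunized samples below the naive ones, as did 14% of all genes, and did not pass (limma adjusted p = 0.114, 0.142 and 0.271). In Il2 and Il13, naive replicate 1 stood high (0.51 and 0.56, against 0.02 to 0.16 in the other naive samples). Il21, a further cytokine gene on those lists, differed by 0.01 ± 0.09, with overlapping groups.

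Of 6 cytotoxic effector genes 0 passed in limma (2 higher, 0 lower, unadjusted). Gzmb, which encodes granzyme B, was 0.42, -0.02, 0.02, 0.47 and 0.47 in immunized replicates 1 to 5, against -0.20, -0.19 and -0.32 in naive replicates 1 to 3. All immunized samples lay above all naive ones, 3 of them clearly and immunized replicates 2 and 3 less so, and the difference was 0.51 ± 0.14 (adjusted p = 0.0526). Nkg7, a granule membrane protein, was 0.10, -0.28, 0.95, -0.06 and 0.87 in immunized replicates 1 to 5, against 0.06, -0.87 and -1.34 in naive replicates 1 to 3. It followed the order seen in Cd3d, with a difference of 1.03 ± 0.37 (adjusted p = 0.103). Perforin, Prf1, was 0.06, -0.03, -0.14, 0.02 and 0.14 in immunized replicates 1 to 5, against -0.01, 0.04 and -0.02 in naive replicates 1 to 3. Its groups overlapped and the 95% confidence interval of its difference was -0.17 to 0.19. The 2 probe sets of Prf1 differed in opposite directions, by 0.19 (all immunized above all naive) and by -0.17 (groups overlapping). Neither passed when tested singly (limma adjusted p = 0.209 and 0.443). Gzma (granzyme A) ranged from -0.76 in immunized replicate 2 to 0.97 in immunized replicate 5, around naive values of -0.05 to 0.46. Gzmk (granzyme K) and the death ligand gene Fasl differed by 0.08 ± 0.08 and 0.18 ± 0.11. The 2 probe sets of Fasl differed by 0.35 and 0.003, and neither passed when tested singly (limma adjusted p = 0.109 and 0.993).

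The 3 NK receptor genes measured all had positive differences, and 0 passed in limma (1 higher, unadjusted). Ncr1, which encodes NKp46, an activating receptor largely restricted to NK cells, was 0.04, -0.15, 0.29, -0.04 and 0.10 in immunized replicates 1 to 5, against -0.25, -0.20 and 0.06 in naive replicates 1 to 3. Its groups overlapped, with a 95% confidence interval of -0.08 to 0.44. Klrd1 (CD94) was highest in immunized replicates 3 and 5 (0.92 and 0.65) and differed by 0.56 ± 0.30. Klrk1 (NKG2D) differed by 0.42 ± 0.18 (adjusted p = 0.158), with naive replicate 1 far below at -0.68, and without that sample by 0.20.

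**Figure D3:**
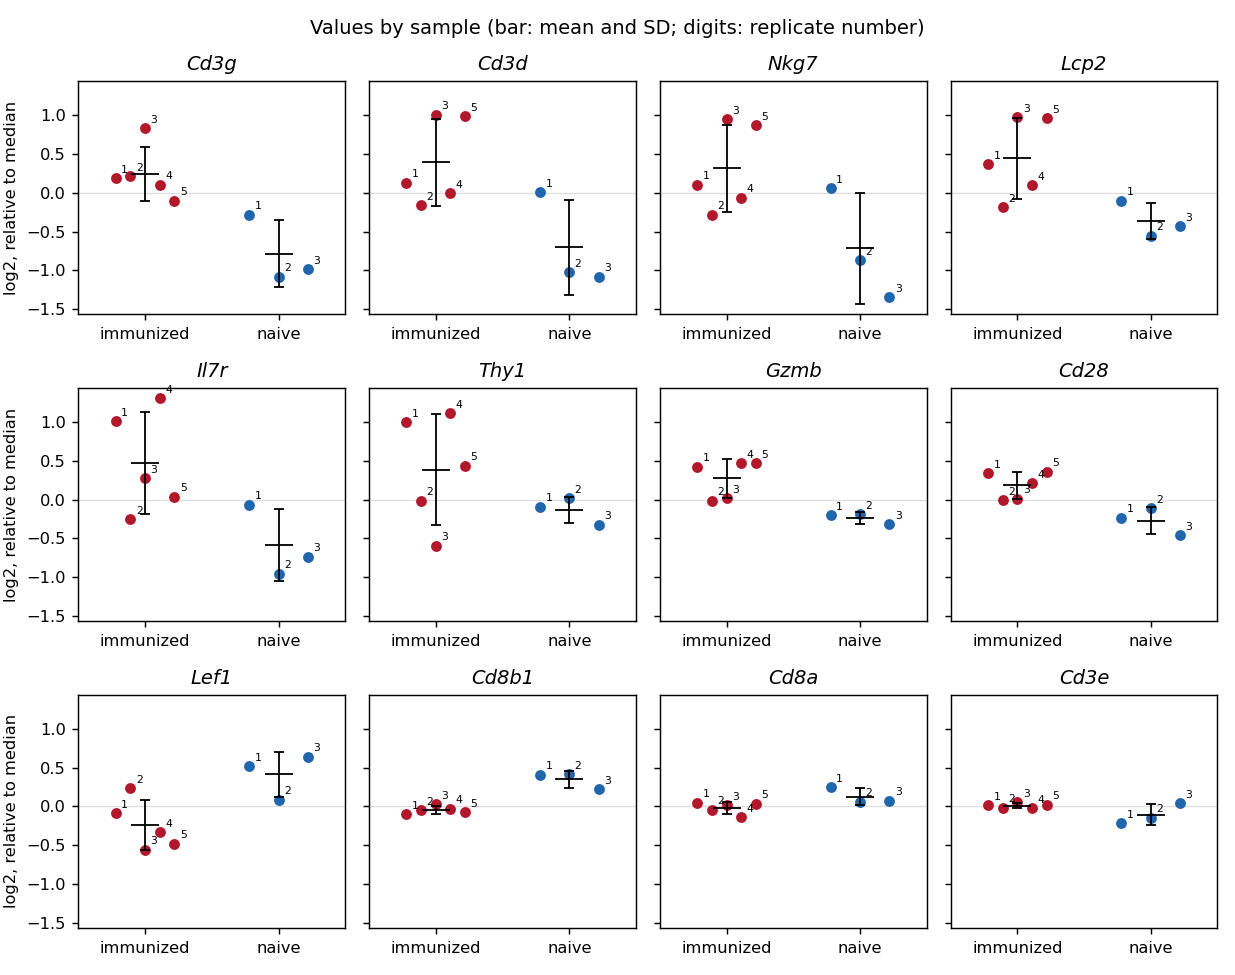
Median-centred log2 values (y axis) of 12 T cell and NK cell genes in immunized (red, left) and naive (blue, right) samples, with the replicate number beside each point and the mean and SD as black bars. Immunized replicates 3 and 5 lead in Cd3d, Nkg7 and Lcp2, immunized replicates 1 and 4 lead in Il7r and Thy1, and Cd3e stays between -0.22 and 0.05.

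The immunized samples did not rank alike across the genes. The highest immunized samples were replicates 3 and 5 in 13 of the 42 genes (31%, against 18.8% of all genes). These were Cd3d, Cd3e, Cd7, Cd27, Lat, Lcp2, Trat1, Tbx21, Foxp3, Il2rb, Nkg7, Klrd1 and Ncr1. Replicates 1 and 3 were highest in 6 genes (14.3%, against 7.9% of all genes), replicates 1 and 5 in 5 (11.9%, against 5.51%) and replicates 4 and 5 in 5 (11.9%, against 9.55%). Replicates 1 and 4 were highest in 4, namely Icos, Pdcd1, Thy1 and Il7r (9.52%, against 7.06%). Replicates 2 and 4 were highest in 1 gene (2.38%, against 15.4% of all genes), and replicates 2 and 3 in 1 (2.38%, against 11.5%). Replicates 1 and 2 led in 2 (4.76%, against 11.9%), replicates 2 and 5 in 2 (4.76%, against 7.62%) and replicates 3 and 4 in 3 (7.14%, against 4.75%). Immunized replicate 2 was the lowest immunized sample in 15 genes (35.7%, against 22.3%), and naive replicate 1 was the highest naive sample in 21 (50%, against 40.9%).

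Means of some lists of other cells followed these orders, and others did not. The mean of 10 neutrophil markers was 0.24, -0.11, 0.59, 0.02 and 0.58 in immunized replicates 1 to 5, against -0.10, -0.64 and -0.72 in naive replicates 1 to 3, so it too was highest in immunized replicates 3 and 5. All 10 had positive differences and 3 passed. The mean of 7 erythroid markers was highest in immunized replicate 3 (0.86), with 0.23 in immunized replicate 5 and -0.22 to 0.22 in the other immunized samples, against -0.36 to 0.14 in naive samples, and 0 of 7 passed in limma (1 higher, unadjusted). Macrophage markers, of which 7 of 10 passed, had means of 0.80, 0.01, 0.24, 0.54 and 0.21 in immunized replicates 1 to 5, against -0.59, -0.91 and -0.90 in naive replicates 1 to 3. They were highest in immunized replicates 1 and 4, the samples that led in Il7r and Thy1. The mast cell mean was also highest in immunized replicates 3 and 5 (0.47 and 0.25). Dendritic cell (0.24 and 0.22) and endothelial (0.15 and 0.47) means were also highest in immunized replicates 1 and 4. B cell and plasma cell means were highest in immunized replicates 1 and 3, and chondrocyte and nucleus pulposus means in immunized replicate 2. Among lists of other cells, 3 of 9 plasma cell and 1 of 8 endothelial markers were higher, 1 of 9 mast cell markers was higher and 2 lower, and 1 of 7 nucleus pulposus markers was lower. Of 9 B cell and 8 dendritic cell markers, 0 passed in limma (0 and 2 higher and 3 and 0 lower, unadjusted). The shares over all genes were 4.46% higher and 4.68% lower (12.9% and 18.2%, unadjusted). The mean over the 42 T cell and NK cell genes spanned less, at 0.11, -0.07, 0.20, 0.07 and 0.19 in immunized replicates 1 to 5, against 0.01, -0.14 and -0.18 in naive replicates 1 to 3. The part of marrow, myeloid, mast or endothelial cells in the T cell and NK cell values was not tested. With immunized replicates 3 and 5 left out, the difference of Cd3d was 0.69 and that of Cd3g 0.95, and neither was called.

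**Figure D4:**
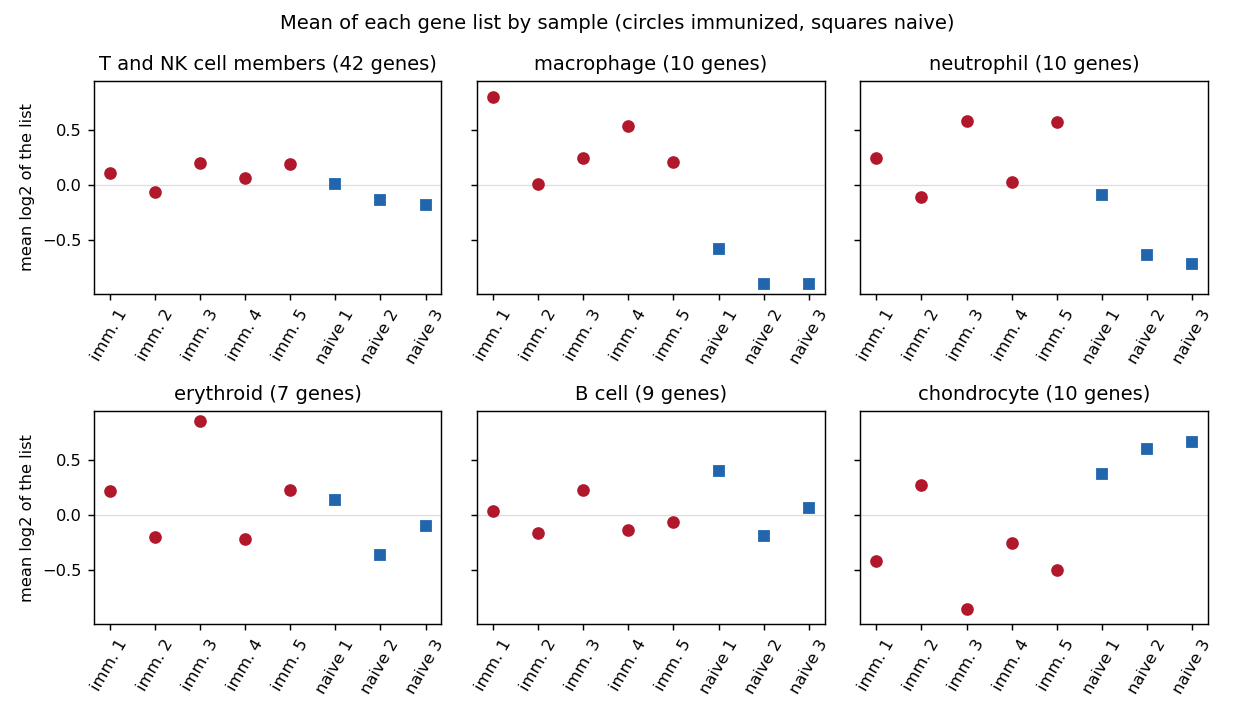
Mean log2 expression of 6 gene lists (y axis) in each of 5 immunized samples (circles) and 3 naive samples (squares). T cell and NK cell genes span -0.18 to 0.20, neutrophil markers peak in immunized replicates 3 and 5, macrophage markers peak in immunized replicates 1 and 4, and chondrocyte markers are lowest in immunized replicate 3.

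Beyond the 42 genes, 4 further lists of T cell, NK cell and innate lymphoid genes were read from the same fit. Over all genes, 4.46% were called higher and 4.68% lower (12.9% and 18.2%, unadjusted), and no list was tested against these shares. Of 22 other genes of T cell receptor signalling, 4 rose and 0 fell (7 higher and 2 lower, unadjusted), with a median difference of 0.20. The 4 were Sla, an adaptor that dampens receptor signalling (1.04 ± 0.26, adjusted p = 0.0438), the phosphatase gene Ptpn6 (0.91 ± 0.23), and Bcl10 (0.34 ± 0.09) and Malt1 (0.55 ± 0.14), whose products form the complex that links antigen receptors to NF-kB. All 4 also act in myeloid or B cells. Of 25 other T cell genes, 2 rose and 0 fell (6 higher and 2 lower, unadjusted), with a median of 0.04. These were Cd69, an early activation marker of many leukocytes (1.21 ± 0.24, adjusted p = 0.0262), and Havcr2, which encodes TIM-3 and is carried by macrophages and dendritic cells as well (1.46 ± 0.37, adjusted p = 0.0442).

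Of 26 other NK and cytotoxic cell genes, 3 rose and 0 fell (6 higher and 2 lower, unadjusted), with a median of 0.07. Il18r1, a chain of the IL-18 receptor, was 0.01, -0.01, 0.55, 0.34 and 0.68 in immunized replicates 1 to 5, against -0.76, -0.76 and -0.77 in naive replicates 1 to 3. The groups were far apart and the naive samples almost equal, with a difference of 1.08 ± 0.16 (adjusted p = 0.0148). Its partner chain Il18rap rose by 1.01 ± 0.27 (adjusted p = 0.0492). Il18rap was highest in immunized replicates 3 and 5, as was the mean of neutrophil markers, and the part of myeloid cells in its values was not tested. Klrg1, a receptor of mature NK and effector T cells, rose by 0.30 ± 0.07 (adjusted p = 0.0367). The 2 genes lower before adjustment were Gzmm (-0.47 ± 0.15, adjusted p = 0.0779) and Txk (-0.37 ± 0.16, adjusted p = 0.159). Klra8 differed by -0.48 ± 0.23, with naive replicate 1 at 1.18. Of 8 genes of gamma delta T cells and innate lymphoid cells, Il17rb, a chain of the IL-25 receptor, fell by 0.47 ± 0.12 (adjusted p = 0.0492) and 0 rose in limma (0 higher and 3 lower, unadjusted). Over all 14 lists outside the 42 genes, cell type markers included, 33 of 166 distinct genes passed with all samples, where 9.14% of all genes passed. Of the 33, 7 were macrophage and 5 chondrocyte markers. Without naive replicate 2, or without naive replicate 3, 1 of the 166 passed, and calls over all genes fell from 1663 to 21 and 176.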

How the data were processed

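Total RNA of 5 immunized and 3 naive disc samples had been labelled as biotinylated cRNA and hybridized to Affymetrix arrays, per the labels' protocols. The authors deposited log2 values made with RMA, per the submitters' processing notes, whose version the sources used here do not give. In the deposited table the median of every probe set is 0 to within 5.0e-07, a centring the labels do not record, so levels are lost. The lowest array of a probe set could be read as a class from the spacing of the numbers: of 64 probe sets for the T cell and NK cell genes, 9 were at 8 or more (log2), 48 between 4 and 8, 6 below 4 and 1 unknown. Over all probe sets the shares were 31.6%, 57.5% and 10.9%.

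Gene names came from the platform annotation, and all 42 symbols matched RefSeq (GRCm38.p6) by gene identifier. Control probe sets (64) were left out, and 45037 probe sets remained, of which 34945 name a single gene. A gene was the mean of its probe sets. The titles gave the groups and name biological replicates, and p-values measure the spread between these samples. Limma 3.58.1 (R 4.3.3; lmFit, eBayes, two-sided, no covariate) was adjusted over all 18193 genes, and separately over all probe sets. The script was tested on simulated data. The members and gene lists were chosen with earlier results of these data known. Values in every sample were to be given for members that passed, the next 4 by absolute moderated t and 13 defining genes. From each other list, up to 4 genes that passed were planned, or those with the largest absolute moderated t where none passed. Of these other genes, Il18r1 alone is given in every sample. Values in every sample for Il7r, Lcp2, Nkg7, Thy1, Tbx21 and Il10 were added after they were seen, and lists of other cell types are given as means and counts. Alternatives covered normalization, probe sets, variance model, array weights, replicate number, single samples and the threshold. Omitting immunized replicates 3 and 5, with or without naive replicate 1, was added after the data were seen. The number of arrays limits the precision.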

Additional observations from a re-analysis of the deposited data

Results flagged for a closer look

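In Xcl1, which encodes a chemokine made by NK cells and CD8 T cells, immunized replicate 3 (0.622) lay far from the other immunized samples (-0.10 to 0.0062). The mean of the 4 cytokine and chemokine genes was also set apart in immunized replicate 3 (0.272, against -0.072 to 0.026 in the other immunized samples), and Xcl1 is among its genes. The mean of the 25 other T cell genes was low in immunized replicate 2 (-0.00488, against 0.102 to 0.136 in the other immunized samples). In this test of a single sample's distance, chance picks about 1 group in 20, and 42 genes and 24 list means were examined, of which 1 gene and 2 list means were picked.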

How the results depend on the processing

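Of the 42 T cell and NK cell genes, 34 kept the sign of their difference in all 19 alternative settings and 8 did not, and the largest difference among the 8 was 0.205 with all samples. The signs turned at 0.0080 (quantile normalization), 0.023 (array weights), 0.022 (without naive replicate 1 and immunized replicates 3 and 5) and 0.017 (without immunized replicates 3 and 5) for Cd6, at -0.025 (most variable probe set per gene), -0.11 (array weights), -0.062 (without those 3 samples) and -0.021 (without those 2) for Eomes, at -0.17 (most variable probe set), -0.037 (replicate block) and -0.017 (without both samples with joined numbers) for Prf1, at -0.013 (array weights), -0.13 (without the 3) and -0.12 (without the 2) for Xcl1, at -0.051 for Trat1 without probe sets below 4, at -0.023 for Cd5 with the replicate block, at 0.128 for Foxp3 without both joined samples, and at -0.032 for Cd7 without the 2. With single samples left out, Cd6 ranged from -0.061 to 0.036, Foxp3 from -0.117 to 0.088, Prf1 from -0.024 to 0.047 and Xcl1 from -0.115 to 0.067.

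Calls moved more than differences. Against 1663 genes, 1 higher and 1 lower T cell or NK cell gene, 3 of their probe sets and 33 genes of the other lists, quantile normalization gave 910 genes, 1 probe set and 13 list genes. Centring arrays on their medians gave 2 higher genes, as did omission of probe sets below 4. Array weights gave 5900 genes in all and 12 higher, and an adjusted p under 0.10 gave 3783, 8 higher and 2 lower. Without both samples with joined numbers, limma called 0 genes (unadjusted, 1621 higher and 2173 lower), and so 0 of the 42 genes (3 higher, 4 lower, unadjusted) and 0 of their probe sets (4 and 4). Without naive replicate 1 and immunized replicates 3 and 5 there were 218 calls in all, 2 higher, 0 lower, 12 list genes and a median difference of 0.0824. Without immunized replicates 3 and 5 there were 220, 0 higher, 0 lower, 0 probe sets (12 higher and 2 lower, unadjusted), 7 list genes and a median of 0.0681. With each sample left out in turn, calls ranged from 21 to 3003 over all genes, from 0 to 6 (higher) and 0 to 2 (lower) over the 42 genes, from 0 to 8 over their probe sets and from 1 to 56 over the other lists. The cause of these changes was not tested.

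The replicate number as a block gave 7 calls in all, and 0 higher, 0 lower, 0 probe sets and 0 list genes in limma (9 and 2 of the 42 genes, 12 and 3 probe sets, and 46 and 16 list genes, unadjusted). Deviations from the group means of same-numbered samples correlated at -0.047, 0.243 and -0.101 across genes for replicates 1, 2 and 3. With 3 naive samples, these correlations cannot show whether same-numbered samples were handled together, and the titles give only a number.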

Other observations

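Genes of T cell receptor segments were gathered after the values had been seen, and of these Tcra is also on the list of other T cell genes. Of 10 such genes, 0 passed in limma, with 2 higher and 1 lower before adjustment and a median difference of 0.16. The largest positive difference was that of Trav9d-3 (0.43 ± 0.12, adjusted p = 0.0563) and the largest negative one that of Trav12n-1 (-0.45 ± 0.13, adjusted p = 0.0609), both with groups that did not overlap. Probe sets for variable segments can bind transcripts of related segments. The probe set annotated to both Klrb1b and Klrb1c, which encode NK cell lectin-like receptors, had 0.16, -0.07, 0.22, -0.06 and -0.09 in immunized replicates 1 to 5, against 0.05, -0.05 and 0.30 in naive replicates 1 to 3. Its groups overlapped, with a difference of -0.07 ± 0.12.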
